A study of Danio rerio with 6 samples.

Results

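Bone morphogenetic proteins (Bmps) are secreted signals of the TGF-beta superfamily. They bind pairs of type I and type II receptor kinases, which phosphorylate Smad proteins that enter the nucleus and switch on targets such as the Id genes. Chordin is a secreted antagonist that holds Bmp ligands away from their receptors. In the regenerating zebrafish fin, Bmp signalling is known for its part in outgrowth of the blastema, the proliferating mesenchyme under the wound epidermis, and in the formation of new bone.

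The 6 genes described here are the ligand genes bmp2a, bmp2b, bmp4 and bmp7a, the antagonist gene chrd (chordin) and the Bmp target gene id1. They were chosen by name, as pathway members, from the 31901 Ensembl gene identifiers in the count files, with earlier results of these data known. The identifiers are ENSDARG00000013409 for bmp2a, ENSDARG00000041430 for bmp2b, ENSDARG00000019995 for bmp4, ENSDARG00000018260 for bmp7a, ENSDARG00000006110 for chrd and ENSDARG00000040764 for id1. The gene table used for names calls both bmp2a and bmp2b BMP2, so the letters that separate them were taken from the list of members.

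RNA was sequenced from distal and proximal pieces of caudal fin regenerates of zebrafish with the transgene shha:eGFP, a green fluorescent reporter of the Hedgehog ligand gene shha, at 96 hours post amputation. The distal piece was told from the proximal one by its reporter signal, both regions carried the same transgene, and no unamputated fin was part of the comparison. There were 3 distal and 3 proximal libraries, numbered 2, 3 and 4 in each region, and every library pooled tissue from 4 fins. Whether the pieces that share a number are from 1 set of fins is not stated. The p-values below, other than those with the replicate block, measure the spread between these pools, which may in part be technical. Those with the replicate block, described below, measure the spread left after differences between numbers are taken out.

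Gene-assigned reads numbered 20113859 to 22348808 in distal libraries and 21480131 to 23629159 in proximal libraries. The libraries numbered 4 stood apart from the others in both regions on the second principal component, which held 19.5% of the variance, so the results are also given without them. The shha gene, listed as SHH (ENSDARG00000068567), had 300, 424 and 404 reads in distal libraries and 159, 126 and 115 in proximal libraries, which checks the labels and is no finding, since its reporter guided the dissection. Markers of other cell types moved with the region. Of the 18 tested epidermal markers 1 was higher and 10 were lower in distal tissue, and the list summed to 38671 to 42879 CPM (counts per 1000000 gene-assigned reads) in distal and 88628 to 98868 CPM in proximal libraries. Of the 24 tested fibroblast and blastema markers 15 were higher and 1 was lower in distal tissue, with sums of 21494 to 23512 CPM in distal and 10838 to 14331 CPM in proximal libraries. Of 14 tested osteoblast markers 3 were higher and 3 were lower in distal tissue, or 8 and 3 with the replicate block described below. The marker bglap was nearly absent from both regions and was not tested, with 0 reads in every distal library and 0, 2 and 0 in proximal libraries. The osteoblast list summed to 16655 to 22775 CPM in distal and 10629 to 14259 CPM in proximal libraries, but without its most abundant gene col1a1a the order turned, with 3160 to 3893 CPM in distal and 4922 to 7285 CPM in proximal libraries. Most of that remainder came from the 2 genes named COL10A1, with means of 2867 and 280 CPM in distal and 4532 and 1470 CPM in proximal tissue. Among its called genes both COL10A1 genes and spp1 were lower in distal tissue, and PANX3 and ALPL were higher. Pigment cell markers were higher for 2 and lower for 10 of 14 tested. Of 13 tested leukocyte markers 0 were higher and 5 were lower in distal tissue, or 1 and 9 with the replicate block. In that blocked fit 23.3% of all tested genes were higher in distal and 25.1% were higher in proximal tissue. The blocked osteoblast and leukocyte counts are to be read beside those shares. The part of these cell types in the results below was not tested, and in bulk tissue fewer cells of a type cannot be told apart from less RNA per cell.

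Of the 6 genes, 3 ligand genes and the target gene were higher in distal tissue, bmp4 by 4.63-fold, bmp2a by 3.02-fold, bmp2b by 1.58-fold and id1 by 1.36-fold. The ligand gene bmp7a and the antagonist gene chrd had few reads, with lower means in distal tissue that did not pass a test without the replicate block. With the block bmp7a passed in edgeR but not in DESeq2. For chrd only DESeq2 could be fitted with the block, and it did not pass there (adjusted p = 0.269). Genes were compared with the edgeR quasi-likelihood test across all 18455 genes with enough reads, with Benjamini-Hochberg adjusted p-values and a threshold of 0.05. With this test 15.3% of all tested genes were higher in distal and 14.4% were higher in proximal tissue, 29.7% in all, and the median log2 fold change over all of them was -0.01. That split of 2819 distal to 2661 proximal calls became 3640 distal to 1924 proximal calls when library size alone was the scaling. The 4 calls among the 5 members tested stand beside that background. With the replicate number as a block, a term that compares the regions within each number, all 5 passed, beside 48.4% of all tested genes. The coefficient of variation beyond counting that edgeR estimated over all genes was 18.5% without the block and 8.97% with it. The 2 sets of p-values are thus measured against different spreads. CPM values carry no correction for composition, and the fold changes do, so fold changes lie somewhat below the ratios of mean CPM for genes higher in distal tissue.

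**Figure D1:**
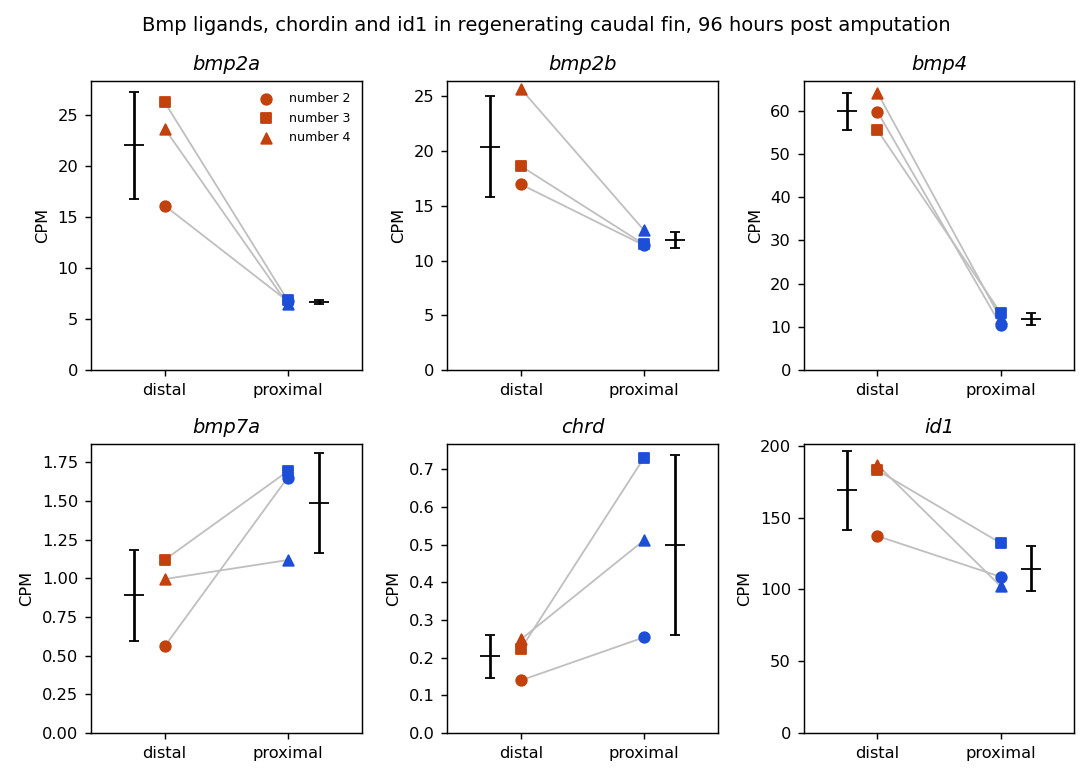
Expression of the 6 genes in CPM (y axis, from 0, a scale of its own in each panel) in distal and proximal libraries. Points are libraries, with the shape giving the number in the title and a line joining equal numbers, and black bars give the mean ± SD of 3 libraries; bmp4, bmp2a, bmp2b and id1 lie higher in every distal library, chrd lies lower in every distal library on 3 to 5 reads each, and bmp7a overlaps.

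The ligand gene with the largest difference was bmp4, a ligand known in zebrafish from ventral patterning of the embryo and in fin regenerates from expression in the blastema. It had 1283, 1240 and 1290 reads in distal libraries 2, 3 and 4, against 247, 290 and 257 in the proximal ones. In CPM these are 59.7, 55.5 and 64.1 in distal tissue and 10.5, 13.3 and 12.0 in proximal tissue. The lowest distal value was 4.19 times the highest proximal value, so the regions were far from overlapping. The mean was 59.8 ± 4.33 CPM in distal and 11.9 ± 1.40 CPM in proximal tissue (SD, n = 3 each). edgeR put the log2 fold change at 2.21 ± 0.12 (SE, adjusted p = 1.68e-05). In 2.00% of all tested genes the shift toward distal tissue was as large or larger. The same share was 3.91% for bmp2a, 13.0% for bmp2b and 19.4% for id1. Toward proximal tissue, 8.72% of all tested genes shifted at least as far as bmp7a. The distal excess of bmp4 was present in each same-numbered pair, at 5.72, 4.19 and 5.36 times the proximal CPM for numbers 2, 3 and 4. Without the libraries numbered 4 the estimate was 2.19 (adjusted p = 1.92e-05).

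The paralogs bmp2a and bmp2b both encode Bmp2-type ligands, and bmp2b is known in zebrafish for setting up the dorsoventral axis and, in fin regenerates, for expression near the shha domain and the forming bone. For bmp2a, 347, 588 and 477 reads were counted in distal libraries, against 160, 150 and 139 in proximal libraries. This gave 16.2, 26.3 and 23.7 CPM in distal and 6.77, 6.86 and 6.47 CPM in proximal tissue. The proximal libraries were nearly equal, with a coefficient of variation of 3.03% where counting alone gives 8.17%, while the distal ones varied by 23.9% with the library numbered 2 lowest. The regions did not overlap, and the lowest distal value was 2.36 times the highest proximal one. The mean was 22.1 ± 5.27 CPM in distal and 6.70 ± 0.203 CPM in proximal tissue (SD, n = 3 each), and the estimated log2 difference was 1.60 ± 0.18 (SE, edgeR adjusted p = 0.000505). It was 1.54 (adjusted p = 0.00115) without the libraries numbered 4.

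For bmp2b the reads were 364, 416 and 516 in distal and 269, 251 and 274 in proximal libraries. The distal values of 17.0, 18.6 and 25.7 CPM all lay above the proximal values of 11.4, 11.5 and 12.8 CPM, and library 4 was highest in both regions. The closest values of the regions differed by a factor of 1.33, a much narrower gap than for bmp2a. Means were 20.4 ± 4.62 CPM in distal and 11.9 ± 0.767 CPM in proximal tissue (SD, n = 3 each), and the estimated log2 difference was 0.66 ± 0.18 (SE, edgeR adjusted p = 0.0264). The call was lost without distal library 4 (0.45, adjusted p = 0.0535), without proximal library 2 (0.63, adjusted p = 0.0868) and without proximal library 3 (0.62, adjusted p = 0.0736), while without both libraries numbered 4 it was 0.54 (adjusted p = 0.0207). With the replicate block the log2 difference was 0.64 (edgeR adjusted p = 0.000385). Over the 15 alternative fits the adjusted p lay between 0.000385 and 0.0868. The sign was the same in each, with little room to change since the regions did not overlap in CPM.

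The partner ligand bmp7a, whose protein forms heterodimers with Bmp2b in the zebrafish embryo, was sparsely expressed. It had 12, 25 and 20 reads in distal libraries, against 39, 37 and 24 reads in proximal libraries. As CPM, these are 0.559, 1.12 and 0.994 in distal and 1.65, 1.69 and 1.12 in proximal tissue. The groups touched, since distal library 3 reached the level of proximal library 4. Means were 0.891 ± 0.294 CPM in distal and 1.49 ± 0.320 CPM in proximal tissue (SD, n = 3 each). At -0.85 ± 0.32 (log2, SE) the difference did not pass the edgeR test (adjusted p = 0.0827), nor did it without the libraries numbered 4 (-1.09, adjusted p = 0.0607). With the replicate block it was -0.87 (SE 0.29) and passed (adjusted p = 0.0284), beside 25.1% of all tested genes that were higher in proximal tissue in that fit. DESeq2 with the same block gave an adjusted p of 0.183. Counting error alone amounts to 22.9% of the mean in distal and 17.3% in proximal tissue for this gene, and the spread between libraries was 33.0% in distal and 21.5% in proximal tissue.

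**Figure D2:**
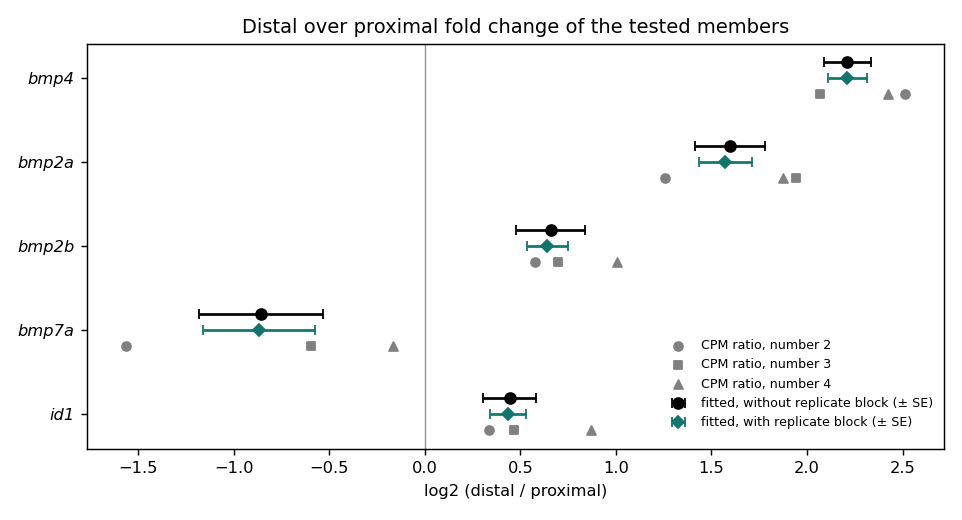
Log2 ratio of distal over proximal expression (x axis) for the 5 genes that passed the count filter. Black circles and green diamonds give the edgeR estimates ± SE without and with the replicate block, and grey symbols give the CPM ratio of each same-numbered pair; bmp4 lies at 2.21, bmp2a at 1.60, bmp2b at 0.66, id1 at 0.44 and bmp7a at -0.85 without the block.

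The antagonist gene chrd was close to the limit of detection in both regions. Its reads numbered 3, 5 and 5 in distal libraries and 6, 16 and 11 in proximal libraries. A floor set here at 3 counts corresponded to 0.127 to 0.149 CPM, and 1 count to 0.0423 to 0.0497 CPM. The distal values of 0.140, 0.224 and 0.249 CPM lay at or above that floor. Proximal values were 0.254, 0.731 and 0.512 CPM. The closest values of the regions differed by a factor of only 1.02, on 5 reads in distal library 4 and 6 in proximal library 2. The mean was 0.204 ± 0.0571 CPM in distal and 0.499 ± 0.239 CPM in proximal tissue (SD, n = 3 each). The gene fell under the count filter and was not in the test of all genes. The exact two-sided permutation test of its CPM gave p = 0.1, which is the smallest p that 3 against 3 libraries allow. Over the summed reads, 13 distal and 33 proximal, the ratio of distal to proximal per gene-assigned read was 0.413 (95% exact interval 0.199 to 0.805), an interval that covers counting error only and not the spread between libraries. In the edgeR fit without a filter the log2 fold change was -1.38 (adjusted p = 0.106). DESeq2 with the replicate block gave -1.35 (adjusted p = 0.269).

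The target gene id1 encodes a helix-loop-helix protein that lacks a DNA-binding domain and blocks other transcription factors by pairing with them. It was counted 2945, 4088 and 3756 times in distal libraries and 2570, 2893 and 2195 times in proximal libraries. In CPM it measured 137, 183 and 187 in distal and 109, 132 and 102 in proximal tissue. Every distal CPM lay above every proximal CPM, but distal library 2 was above proximal library 3 by a factor of only 1.04. The composition scaling factors of the test, 1.03 for distal library 2 and 0.996 for proximal library 3, narrow that gap further. Means were 169 ± 27.6 CPM in distal and 114 ± 15.8 CPM in proximal tissue (SD, n = 3 each), and the estimated log2 difference was 0.44 ± 0.14 (SE, edgeR adjusted p = 0.0428). The same direction held within numbers 2, 3 and 4, at 1.26, 1.38 and 1.83 times. The call did not hold without distal library 3 (0.40, adjusted p = 0.128), distal library 4 (0.36, adjusted p = 0.107), proximal library 2 (0.42, adjusted p = 0.135), proximal library 4 (0.40, adjusted p = 0.112) or both libraries numbered 4 (0.31, adjusted p = 0.162). With the replicate block the log2 difference was 0.44 (edgeR adjusted p = 0.00249). Over all 15 alternative fits the adjusted p ranged from 0.000674 to 0.162 with no change of sign, for which the non-overlapping CPM left little room. With library size alone as the scaling, which moves the median of all genes to 0.11, the value was 0.56.

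The spread between libraries was above counting error in both regions for bmp2b, bmp4, bmp7a and id1, while in proximal tissue for bmp2a and in distal tissue for chrd it was below it. For bmp2b in proximal tissue the 2 were close, at 6.46% spread against 6.15% counting error. A spread from 3 libraries is itself uncertain, and whether it differs from counting error was not tested. For id1 counting contributes 1.67% in distal and 1.98% in proximal tissue, against a spread between libraries of 16.3% in distal and 13.8% in proximal tissue. For bmp4 the corresponding pairs are 2.81% counting error against 7.24% spread in distal tissue and 6.15% against 11.8% in proximal tissue. For chrd counting alone gives 48.0% in distal and 30.2% in proximal tissue. All distal values lay above all proximal values for bmp2a, bmp2b, bmp4 and id1, a separation that 30.1% of all tested genes showed in this direction on the CPM scale. The chrd values separated in the other direction, as did those of 16.4% of all tested genes, which do not include chrd. That chrd separation was narrow, by a factor of 1.02 on 5 reads against 6.

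The members were also set against each other. Within a library, the log2 ratio of one gene's reads to another's is free of depth, and its difference between regions is free of gene length. The ratio of bmp2a to bmp2b was -0.07, 0.50 and -0.11 in distal libraries 2, 3 and 4 and -0.75, -0.74 and -0.98 in proximal ones. The mean ratio was higher in distal tissue by 0.93 on the log2 scale, with no overlap and the same direction in 3 of 3 pairs. The ratio of bmp2b to bmp7a averaged 4.52 ± 0.43 in distal and 3.00 ± 0.42 in proximal tissue, a difference of 1.52.

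Set against the mean log2 reads of the 4 ligand genes, both chrd and id1 stood lower in distal tissue. The chrd ratio was -5.79 ± 0.12 in distal and -3.67 ± 0.71 in proximal tissue, a difference of -2.12 with 0.5 counts added to each value and of -1.69 with 5 counts added. The id1 ratio was 3.77 ± 0.04 in distal and 4.22 ± 0.11 in proximal tissue (SD, n = 3 each), a difference of -0.45 although id1 itself was higher in distal tissue. Each of these 4 ratios separated the regions completely. The exact two-sided permutation p was 0.1 for each, 0.1 after Benjamini-Hochberg adjustment over the 4, and no smaller p is possible with 3 against 3 libraries.

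**Figure D3:**
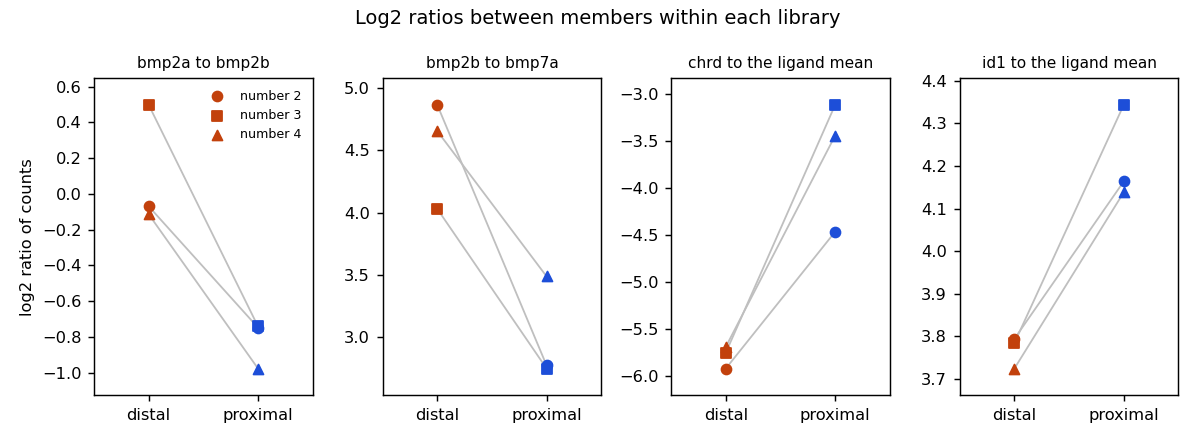
Log2 ratio of read counts between members (y axis, a scale of its own in each panel, not starting at 0) in each distal and proximal library, with lines joining equal numbers. The ratios of bmp2a to bmp2b and of bmp2b to bmp7a lie higher in all distal libraries, and those of chrd and id1 to the mean of the 4 ligand genes lie lower in all distal libraries.

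The rest of the pathway was read from lists by role, matched by symbol to 96 further identifiers, of which 82 had enough reads to be tested. Of these 82 genes 34 were higher and 10 were lower in distal tissue, 53.7% in all against 29.7% of all tested genes, with a median log2 fold change of 0.33 against -0.01. These are counts and medians only, and the lists were chosen with earlier results of these data known. Without the libraries numbered 4, 6 ligand, 12 receptor, 10 extracellular regulator, 9 intracellular regulator and 4 responsive genes passed, against 6, 14, 10, 10 and 4 with all libraries. Names in capitals are the gene table's, and paralogs that share a name are told apart by identifier.

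Among 11 other tested ligand genes of the Bmp and Gdf families, 5 were higher and 1 was lower in distal tissue, with a median log2 fold change of 0.78. The largest distal excess was in BMP5, a ligand of the Bmp5 to Bmp8 subgroup, which measured 18.2, 18.8 and 16.4 CPM in distal libraries and 2.62, 2.88 and 2.33 CPM in proximal libraries. At 2.65 ± 0.14 (SE, edgeR adjusted p = 1.23e-05) its log2 fold change stood beside the 2.21 of bmp4, and the difference between the 2 genes was not tested. The ligand gene bmp16 differed by 1.81 (SE 0.18, adjusted p = 0.000213). The gene gdf6a, a growth and differentiation factor known from eye and skeletal patterning, differed by 1.49 (SE 0.15, adjusted p = 0.000283). BMP7, a Bmp7 gene other than bmp7a, had 21.5 ± 3.41 CPM in distal and 10.4 ± 1.99 CPM in proximal tissue (SD, n = 3 each), and its log2 difference of 0.91 ± 0.19 (SE) passed (edgeR adjusted p = 0.00975). The 2 Bmp7 genes thus had opposite signs, and the difference between them was not tested.

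GDF10 (ENSDARG00000095378) rose by 1.42 (SE 0.42, edgeR adjusted p = 0.0378), and libraries numbered 3 were highest in both regions. Its call was lost without distal library 2 (1.48, adjusted p = 0.0749), distal library 3 (0.99, adjusted p = 0.131), proximal library 2 (1.36, adjusted p = 0.125) or proximal library 4 (1.15, adjusted p = 0.083). In the edgeR fit with the replicate block its adjusted p was 2.01e-06, beside 48.4% of all tested genes that passed there. The second GDF10 (ENSDARG00000073891) did not pass, at 0.41 (SE 0.18, edgeR adjusted p = 0.132). With the replicate block its adjusted p was 0.0221 in edgeR and 0.136 in DESeq2. The only ligand gene past the threshold in the other direction was GDF5, a ligand known from joint formation, which is named here after its values were seen. It had 1, 1 and 0 reads in distal and 16, 11 and 12 reads in proximal libraries, too few for a reliable fold.

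Receptor and co-receptor genes changed in both directions, 8 higher and 6 lower in distal tissue of 20 tested, with a median of -0.02. The 6 lower genes were the receptor genes bmpr1bb and ACVR2A and the co-receptor genes RGMA, RGMB, rgmd and HJV. Within the Bmp type I receptors, BMPR1A (ENSDARG00000019728) rose to 68.5 ± 4.51 CPM in distal tissue, against 38.0 ± 2.61 CPM in proximal tissue (SD, n = 3 each; log2 fold change 0.73, SE 0.09, edgeR adjusted p = 0.000716). In contrast, bmpr1bb, which encodes another type I receptor, had 5.87, 5.10 and 4.03 CPM in distal and 15.7, 18.7 and 15.9 CPM in proximal libraries. It was lower in distal tissue in every pair, and edgeR put the log2 fold change at -1.86 ± 0.16 (SE, adjusted p = 0.000136). Its paralog bmpr1ba did not pass, at -0.28 (SE 0.24, adjusted p = 0.424). The second BMPR1A (ENSDARG00000105045) was higher in distal tissue by 0.43 (SE 0.11, adjusted p = 0.0198). Its call was lost without distal library 3 (0.39, adjusted p = 0.074), distal library 4 (0.40, adjusted p = 0.054) or proximal library 2 (0.37, adjusted p = 0.0687). In the edgeR fit with the replicate block its adjusted p was 0.00107, beside 48.4% of all tested genes that passed there.

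The type I receptor gene acvrl1, known mainly from blood vessels, had 156 ± 4.45 CPM in distal and 61.1 ± 0.505 CPM in proximal tissue (SD, n = 3 each), and its log2 difference was 1.23 ± 0.09 (SE, edgeR adjusted p = 4.62e-05). Of 8 tested endothelial markers 0 were higher and 5 were lower in distal tissue (edgeR, adjusted p under 0.05; 0 higher also with the replicate block), and their list summed to 124 to 144 CPM in distal and 214 to 276 CPM in proximal libraries. Without its most abundant gene plvapb the sums overlapped, at 65.9 to 76.4 CPM in distal and 71.0 to 121.6 CPM in proximal libraries. The listed cdh5 and flt1 fell under the count filter and leaned the other way. Reads of cdh5 were 38, 12 and 7 in distal and 6, 3 and 2 in proximal libraries. Those of flt1 were 9, 4 and 3 in distal and 3, 2 and 2 in proximal libraries. DESeq2 with the replicate block gave cdh5 an adjusted p of 0.0292. The zebrafish type I receptor gene acvr1l was near the threshold at 0.35 (SE 0.11, adjusted p = 0.0493). It no longer passed without distal library 2 (0.31, adjusted p = 0.152), distal library 3 (0.34, adjusted p = 0.126), proximal library 2 (0.36, adjusted p = 0.123) or proximal library 4 (0.27, adjusted p = 0.126), with no count filter (adjusted p = 0.0567), with the stricter filter (adjusted p = 0.0521) or without both libraries numbered 4 (0.33, adjusted p = 0.0696). In the edgeR fit with the replicate block the adjusted p of acvr1l was 0.00371.

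Of the type II receptors, BMPR2 (ENSDARG00000011941) rose by 0.86 (SE 0.12, edgeR adjusted p = 0.0015), and the second BMPR2 (ENSDARG00000020057) had 0.42 (SE 0.22, adjusted p = 0.184; 0.00136 with the replicate block). ACVR2A, a type II receptor shared with activins, was lower in distal tissue, at -0.40 (SE 0.10, adjusted p = 0.0221). It did not pass without distal library 2 (-0.41, adjusted p = 0.0647), distal library 3 (-0.34, adjusted p = 0.0823), proximal library 2 (-0.41, adjusted p = 0.0513) or proximal library 4 (-0.34, adjusted p = 0.0651), nor with library size alone (-0.28, adjusted p = 0.0543). In the edgeR fit with the replicate block the adjusted p of ACVR2A was 0.00138. ACVR2B (ENSDARG00000103108), of the same receptor type, was higher in distal tissue at 0.81 (SE 0.23, adjusted p = 0.0326). Its call was lost without distal library 2 (0.68, adjusted p = 0.12), distal library 3 (0.81, adjusted p = 0.0872), proximal library 2 (0.85, adjusted p = 0.0824) or proximal library 4 (0.68, adjusted p = 0.0866). In the edgeR fit with the replicate block its adjusted p was 0.0034.

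The other type II genes, acvr2ab and ACVR2B (ENSDARG00000044422), and the activin type I receptor genes named ACVR1B had log2 fold changes between -0.31 and 0.15 that did not pass; with the replicate block ACVR1B (ENSDARG00000018968), at -0.23 without it, had an adjusted p of 0.0275, and 0.0627 in DESeq2 with the same block. RGMA, a membrane-anchored Bmp co-receptor, was lower in distal tissue, at -1.14 (SE 0.09, adjusted p = 0.000101), and NEO1 (ENSDARG00000075100), the neogenin receptor that binds such co-receptors, was higher by 1.14 (SE 0.14, adjusted p = 0.00065). The next genes are named after their values were seen. RGMB (-0.81, edgeR adjusted p = 0.00123), rgmd (-0.72, adjusted p = 0.00218) and HJV (-1.40, adjusted p = 0.0379) were also lower. HJV had only 4, 13 and 8 reads in distal and 19, 27 and 18 in proximal libraries. The second NEO1 (ENSDARG00000102855) was higher by 0.84 (SE 0.11, adjusted p = 0.000903).

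**Figure D4:**
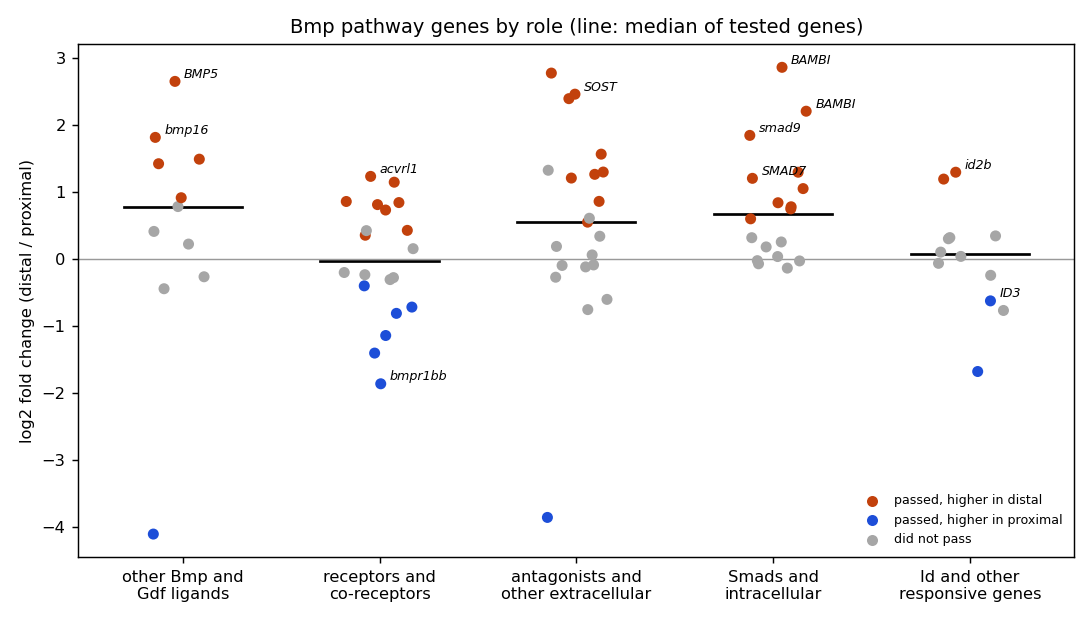
Log2 fold change of distal over proximal expression (y axis) of the 82 tested Bmp pathway genes that are not among the 6 members, by role (x axis, with points spread sideways for visibility). Colour gives the edgeR call at an adjusted p under 0.05 and black lines give the median of each role, 0.78, -0.02, 0.55, 0.67 and 0.07 from left to right; the 2 lowest points, GDF5 and GREM1, rest on few distal reads.

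Among 21 tested genes for antagonists and other extracellular regulators, 9 were higher and 1 was lower in distal tissue, with a median of 0.55. Of 3 tested genes for tolloid-type enzymes, metalloproteases that cut chordin, 2 were higher in distal tissue. TLL1 had 13.4 ± 0.549 CPM in distal and 2.35 ± 0.580 CPM in proximal tissue (log2 fold change 2.39, SE 0.18, edgeR adjusted p = 7.16e-05). BMP1 (ENSDARG00000028071), which despite its name is such a protease and no ligand, had 302 ± 30.7 CPM in distal and 113 ± 5.75 CPM in proximal tissue (SD, n = 3 each in both; 1.30, SE 0.11, adjusted p = 0.000115). The third, BMP1 (ENSDARG00000028053), had 1.17 ± 0.385 CPM in distal and 1.17 ± 0.374 CPM in proximal tissue and did not pass (-0.12, SE 0.34, adjusted p = 0.833). SOST, the gene of sclerostin, which is known as an inhibitor of Wnt and Bmp signalling, differed by 2.46 (SE 0.22, adjusted p = 0.00015). Of the 2 genes that the table names NOG, for the antagonist noggin, ENSDARG00000058819 was higher by 1.56 (SE 0.27, adjusted p = 0.00403), and NOG (ENSDARG00000053528) had a log2 fold change of -0.09 and did not pass (adjusted p = 0.724). A further noggin gene, nog2, is among the 9 genes that were higher.

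FSTL1 (ENSDARG00000015559), a secreted follistatin-like glycoprotein, rose by 2.77 (SE 0.45, edgeR adjusted p = 0.00275). It was highest in the libraries numbered 4 in both regions, and without proximal library 4 the value was 3.39 (adjusted p = 0.00057). The second FSTL1 (ENSDARG00000039576), named after its values were seen, was more abundant and rose less. It had 1175 ± 7.14 CPM in distal and 739 ± 54.7 CPM in proximal tissue (SD, n = 3 each; log2 fold change 0.55, SE 0.09, edgeR adjusted p = 0.00228). The only gene of this list that was lower in distal tissue was GREM1 (ENSDARG00000104618), a gene of the antagonist gremlin and named after its values were seen, with 4, 2 and 1 reads in distal and 30, 25 and 46 reads in proximal libraries.

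Of 18 tested Smad and intracellular regulator genes 10 were higher and 0 were lower in distal tissue (edgeR at an adjusted p under 0.05; with the replicate block 11 were higher and 0 lower), with a median of 0.67. The largest difference was in BAMBI (ENSDARG00000055381), whose product is a membrane pseudoreceptor without a kinase domain that dampens Bmp signals. It had 291, 292 and 325 CPM in distal and 44.4, 42.3 and 29.1 CPM in proximal libraries, and edgeR put the log2 fold change at 2.86 ± 0.16 (SE, adjusted p = 1.46e-05). The second BAMBI (ENSDARG00000099677) had 140, 177 and 152 CPM in distal and 27.9, 42.9 and 23.5 CPM in proximal libraries, with a log2 fold change of 2.20 (SE 0.20, adjusted p = 0.000146). Both thus separated the regions widely. Of the inhibitory Smad genes, SMAD6 (ENSDARG00000031763) rose 2.45-fold (adjusted p = 4.83e-05) and SMAD7 rose 2.30-fold (adjusted p = 0.000767). The second SMAD6 (ENSDARG00000053209), named after its values were seen, rose 2.07-fold (edgeR adjusted p = 0.00152). The gene smad9, for a Smad that Bmp receptors phosphorylate, rose by 1.84 (SE 0.15, adjusted p = 9.55e-05).

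The Id family, to which id1 belongs, did not move as one group. The gene id2b was higher in distal tissue, with 9.92, 8.23 and 12.3 CPM in distal and 4.36, 3.38 and 3.68 CPM in proximal libraries (log2 fold change 1.29, SE 0.21, edgeR adjusted p = 0.00252). ID3 was lower, with 17.3, 15.8 and 19.99 CPM in distal and 24.5, 27.7 and 23.3 CPM in proximal libraries (-0.62, SE 0.12, adjusted p = 0.00728). The regions did not overlap for either gene. Of all tested genes 30.1% separated on the CPM scale with distal higher and 16.4% with proximal higher. ID2 measured 0.30 (SE 0.15, adjusted p = 0.18; 0.0141 with the replicate block) and ID4 measured 0.04 (SE 0.15, adjusted p = 0.88), and neither passed. In the whole list of 12 tested Id and other Bmp-responsive genes, 2 were higher and 2 were lower in distal tissue, 33.3% against 29.7% of all tested genes. The remaining calls were HEY1, for a transcriptional repressor known also from Notch signalling, at 1.19 (SE 0.22, adjusted p = 0.00521), and TBX2 (ENSDARG00000006120), for a T-box repressor, at -1.68 (SE 0.24, adjusted p = 0.00146). The second TBX2 (ENSDARG00000018025) had the opposite sign and did not pass, at 0.32 (SE 0.34, edgeR adjusted p = 0.518). The list does not hold the SMAD6, SMAD7 and BAMBI genes, which were counted above with the intracellular regulators and were all higher in distal tissue. It also lacks the msx genes, which were counted with the fibroblast and blastema markers. There msx1a, msx1b, msx2a, msx2b and msx3 all passed as higher in distal tissue. Their log2 fold changes ran from 1.07 for msx1b to 3.41 for msx2b, and they are named here after their values were seen.

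For each tested member the 2 genes with the most similar profile were taken from 14107 named genes with a mean of at least 50 reads, by the Euclidean distance of log2 CPM over the 6 libraries after each gene's own mean was subtracted. Closest to bmp4 were lamc3 (distance 0.25) and WNT5B (0.26), and closest to bmp2a were triobpa (0.21) and abcc6a (0.23). CDON (0.09) and MAP7D1 (0.16) lay closest to bmp2b, and in CDON the distal mean was 121 ± 29.8 CPM and the proximal mean 68.9 ± 4.36 CPM (SD, n = 3 each). The nearest to id1 were OGDH (0.12) and si:ch211-209j10.5 (0.15), and to bmp7a dicp3.1 (0.27) and ADAP2 (0.41). All points share the 6 libraries and their depth, and with so many candidates close profiles are found for most genes.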

How the data were processed

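Stranded mRNA libraries were prepared from TRIzol-extracted RNA, per the labels' protocols. Reads were aligned with TopHat2 and counted per gene with HTSeq on GRCz11, per the submitters' processing notes; versions, annotation release and strand setting are not given in the sources used here. The deposited files hold raw counts per Ensembl gene. A blank-identifier line equal to the gene total and 5 category lines were kept out, and 29178 of 31901 identifiers had a symbol. The members and lists were chosen with earlier results of these data known.

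CPM are counts per 1000000 gene-assigned reads. Genes passing filterByExpr (minimum 10 counts, 18455 genes) were given TMM scaling factors, which correct for composition, and tested with edgeR 4.0.16 in R 4.3.3 without a block, and the code was tested on simulated data. The SE is the absolute log2 fold change over the square root of F. Library size alone moved the median log2 fold change of all genes from -0.01 to 0.11. Replicates differed beyond sampling noise. After subtraction of region means, same-numbered libraries correlated at 0.42, 0.56 and 0.68 across genes, so the title numbers were taken as pairs; they come from the titles only.

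Named pathway genes are, per role, up to 5 genes past the threshold with the largest change and a mean of at least 50 counts in the higher region, plus the Id genes and the receptors. Alternatives were DESeq2 1.42.0 size factors, library size alone, other filters, the replicate block, each library left out in turn, the DESeq2 test and limma-voom (limma 3.58.1); DESeq2 with the block, the fit without both libraries numbered 4, marker sums without each list's most abundant gene and the permutation test of chrd were added after seeing the data. No sequences are shown.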

Additional observations from a re-analysis of the deposited data

How the results depend on the processing

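The directions of all 6 genes and of the 4 ratios were the same under every alternative that could be fitted (15 fits for bmp2a, bmp2b, bmp4 and id1, 14 for bmp7a, 9 for chrd and 9 for each ratio), and bmp2a and bmp4 also passed in each. For the ratios and chrd much of this was fixed in advance. Their values did not overlap between regions, so leaving out libraries could not change the sign. Such fits were 7 of the 9 for each ratio and 6 of the 9 for chrd. The CPM of bmp2a, bmp2b, bmp4 and id1 did not overlap between regions either. That left little room for a change of sign in their 7 fits with libraries left out, of 15 each. A paired sign-flip test of each ratio kept the main difference, so its sign could not change either. The replicate block brought bmp7a past the threshold at -0.87 and raised the genes called to 8938, with 4306 on the distal and 4632 on the proximal side, against 5480, 2819 and 2661 without it; of the members it changed no other call. When libraries were left out, bmp2b ranged from 0.45 to 0.77 and id1 from 0.36 to 0.57, or 0.31 without both libraries numbered 4, and both lost their call in some fits; 2 to 4 of the 6 members passed, 1746 to 2443 genes were higher in proximal tissue when 1 library was left out, the lowest without distal library 3, and 9 to 13 receptor genes passed, the lowest without proximal library 2, with fewer samples in each fit. Neither bmp7a under the filter at a mean of 50 counts nor chrd under any filtered fit could be given a value. The members with the fewest reads were chrd and bmp7a, with 3 to 39 per library, and neither passed an unpaired test. With the replicate block chrd, fitted by DESeq2 only, did not pass, and bmp7a passed in edgeR but not in DESeq2. The part of depth in this was not tested. For bmp7a the spread between libraries was above counting error in both regions, an excess that was not tested.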
